A study of Mus musculus with 12 samples.

Results

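The tissue kallikrein genes Klk1, Klk1b5, Klk1b8, Klk1b11, Klk1b24 and Klk1b27 were followed in the mouse pancreas. They are 6 of the 18194 genes with at least 1 probe set of their own, that is, a set of array probes annotated to a single gene symbol. Where a gene had several such probe sets, the one with the highest mean over the 12 arrays stood for it. RNA came from whole pancreas of 8-week-old mice of 2 C57BL6 substrains, C57BL6/NHsd from Harlan and C57BL6/J from Jackson (NHsd and J below). Each substrain had 3 mice in which cerulein had produced chronic pancreatitis and 3 controls injected with saline, and each mouse had 1 Affymetrix array. The labels give no dose or schedule of cerulein, call the controls female and give no sex for the treated mice. Cerulein is a cholecystokinin analogue that overstimulates acinar cells, the enzyme-secreting cells of the pancreas.

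Tissue kallikreins are secreted serine proteases of the trypsin fold, made as inactive precursors. Klk1 is the kallikrein proper: it cuts kininogen to release kinins, short peptides that act through the receptors Bdkrb1 and Bdkrb2 on vessel tone, vascular permeability and pain, and it is a normal product of the pancreas, kidney and salivary glands. Rodents carry a tandem family of Klk1-related genes, the Klk1b genes, best known from the submandibular gland, where some of their products were isolated in complexes with growth factors such as epidermal growth factor.

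In the RefSeq order of genes on chromosome 7, 24 entries run from Klk1b8 to Klk1, pseudogenes included. Klk1b8 is entry 1, Klk1b11 entry 6, Klk1b27 entry 13, Klk1b24 entry 19, Klk1b5 entry 22 and Klk1 entry 24. All 6 genes matched RefSeq (GRCm38.p6) by symbol and gene number, and all lie on the + strand. The 250 bases before the annotated start are printed for Klk1, whose signal barely differed between groups, for Klk1b5 and Klk1b24, which differed most after cerulein, and for Klk1b8, the Klk1b gene that differed least. They lie at chr7:44225110-44225359 for Klk1, chr7:44216224-44216473 for Klk1b5, chr7:44187986-44188235 for Klk1b24 and chr7:43950416-43950665 for Klk1b8. Capitals mark TTTAAA, a variant of the TATA box, and TGGGAA or its reverse complement TTCCCA, the core bound by the RBPJ and RBPJL subunits of the acinar factor PTF1.
Klk1: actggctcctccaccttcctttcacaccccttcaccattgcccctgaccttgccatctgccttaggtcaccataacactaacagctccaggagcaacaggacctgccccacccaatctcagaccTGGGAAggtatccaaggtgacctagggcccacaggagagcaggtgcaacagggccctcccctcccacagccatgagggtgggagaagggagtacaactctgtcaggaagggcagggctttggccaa
Klk1b5: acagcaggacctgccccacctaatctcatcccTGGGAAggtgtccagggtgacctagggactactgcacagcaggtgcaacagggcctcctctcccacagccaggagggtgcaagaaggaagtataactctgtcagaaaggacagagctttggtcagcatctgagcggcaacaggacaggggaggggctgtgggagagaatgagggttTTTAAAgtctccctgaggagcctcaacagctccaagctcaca
Klk1b24: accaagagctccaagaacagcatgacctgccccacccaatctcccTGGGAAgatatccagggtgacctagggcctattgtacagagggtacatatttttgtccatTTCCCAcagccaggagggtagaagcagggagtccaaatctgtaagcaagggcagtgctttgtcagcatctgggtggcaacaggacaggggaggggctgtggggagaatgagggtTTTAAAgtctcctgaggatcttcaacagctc
Klk1b8: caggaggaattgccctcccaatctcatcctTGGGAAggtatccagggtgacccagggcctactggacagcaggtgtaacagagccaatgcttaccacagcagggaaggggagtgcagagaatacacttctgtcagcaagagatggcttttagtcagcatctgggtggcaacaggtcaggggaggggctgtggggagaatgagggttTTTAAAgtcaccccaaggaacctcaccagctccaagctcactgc

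TTTAAA lay in the windows of 5 of the 6 genes, all but Klk1, and in 12.1% of the 32851 RefSeq windows of 250 bases. It ended 37 bases before the start in Klk1b5, 39 in Klk1b8, 35 in Klk1b11, 26 in Klk1b24 and 12 in Klk1b27. The 14 Klk1 and Klk1b genes with a promoter entry held it in 12 cases, so it did not set the members apart from their relatives. TGGGAA, on either strand, lay in 5 of the 6 windows, all but that of Klk1b11, in 13 of the 14 of the family and in 21.6% of all windows. Klk1b24 and Klk1b27 held it on both strands. Its first base lay 126 bases before the start in Klk1 and 218 in Klk1b5, so these windows were not in register. The Klk1 window may end before the stretch that holds TTTAAA in Klk1b5, and bases past the Klk1 start were not searched. The E-box CACCTG or CAGGTG lay in 3 windows (17.2% of all), those of Klk1, Klk1b5 and Klk1b8, and AGAACA or TGTTCT, the core of the steroid receptor element, in 1 (16.1% of all), that of Klk1b24. No 2 of these matches overlapped in the 6 windows. A match describes the letters and is no evidence of a bound site. The 300-base RefSeq windows of the 6 genes, which run 50 bases past the start, were identical in 76.9% to 89.7% of aligned columns (median 82.8% over 15 pairs), over aligned stretches of 208 to 309 columns with gaps counted and overhanging ends left out. Among the 6, Klk1b24 and Klk1b27 were the closest pair at 89.7%, though each was closer to Klk1b21 (97.7% and 92.8%), which is no member, Klk1 and Klk1b8 the most distant at 76.9%, and Klk1 and Klk1b5 shared 85.2%.

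After cerulein, the signal of the 5 Klk1b genes was lower and that of Klk1 nearly level. Over both substrains, cerulein minus saline in mean log2 signal was -2.96 (SE 0.31) for Klk1b24, -2.78 (SE 0.18) for Klk1b5, -1.5 (SE 0.23) for Klk1b11, -0.96 (SE 0.19) for Klk1b27 and -0.60 (SE 0.19) for Klk1b8, with 6 arrays on each side. For Klk1 it was -0.07 (SE 0.08). The genes were selected on these same differences, since Klk1b24 in NHsd and Klk1b5 in J stood among the largest falls of all genes, so their values after cerulein are given as a description, with no test. All levels are log2 probe set signals as deposited, with n = 3 mice per group and SD as the error. Because a probe set's brightness depends on its probes, levels are compared between groups and not between genes.

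**Figure D1:**
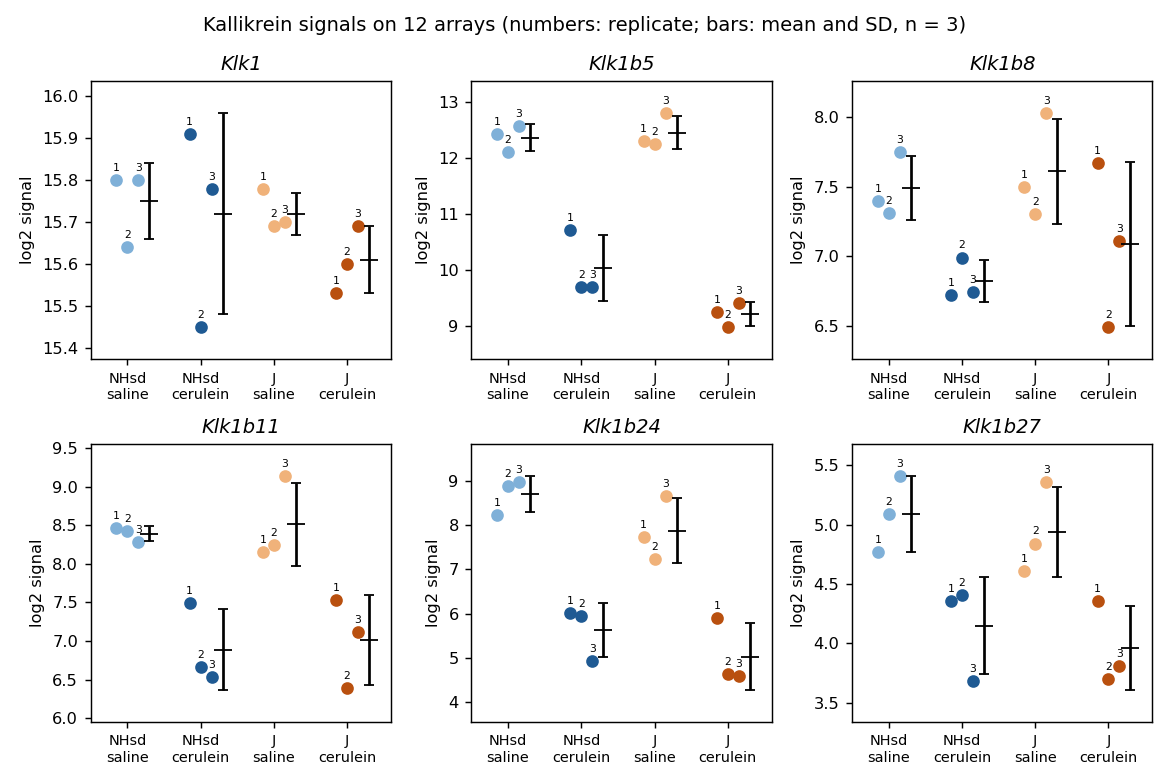
Log2 probe set signal (vertical axis, own scale in each panel) of the 6 kallikrein genes on each of the 12 arrays, with 3 numbered points per group and a bar for the mean ± SD. For Klk1b5, Klk1b11, Klk1b24 and Klk1b27 all cerulein points lie below all saline points of the same substrain, whereas the Klk1 panel spans only 15.45 to 15.91. The share of all genes separated in this way was not counted, so the separation is not read as particular to these genes. For cerulein against saline, 5170 of 8505 genes in NHsd and 5211 in J had an unadjusted limma p under 0.05.

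Klk1, the kinin-releasing enzyme, read 15.80, 15.64 and 15.80 in NHsd saline mice (15.75 ± 0.09) and 15.91, 15.45 and 15.78 after cerulein (15.72 ± 0.24). J saline mice read 15.78, 15.69 and 15.70 (15.72 ± 0.05), and J cerulein mice 15.53, 15.60 and 15.69 (15.61 ± 0.08). The NHsd groups overlapped fully, and in J the highest cerulein array met the lowest saline array with no gap at 2 decimals. Cerulein minus saline was -0.03 in NHsd and -0.12 in J (SE 0.11 each). The NHsd value was smaller than either SD of its groups, while the J value was larger than both (0.05 and 0.08) and near its SE. This flat reading depends on scale. The median of all 8505 genes compared was 0.49 higher after cerulein as deposited, and with every array shifted to the same median the Klk1 difference was -0.66 (SE 0.07), whereas quantile normalization gave 0.04. Klk1 lay close to the highest signal on the arrays (16.4), and whether saturation limits its reading was not tested.

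Klk1b5 read 12.42, 12.10 and 12.57 in NHsd saline mice (12.36 ± 0.24) and 10.72, 9.69 and 9.70 after cerulein (10.04 ± 0.59). In J it read 12.30, 12.25 and 12.80 with saline (12.45 ± 0.30) and 9.25, 8.98 and 9.40 with cerulein (9.21 ± 0.21). The groups were separated by 1.38 in NHsd and 2.85 in J, and the J cerulein arrays all lay below the NHsd cerulein arrays. Cerulein minus saline was -2.33 in NHsd (SE 0.26), a 5.02-fold lower signal, and -3.24 in J (SE 0.26), 9.42-fold lower. The value in J minus that in NHsd was -0.91 (SE 0.37), which came to -0.57 without NHsd cerulein replicate 1, the highest of its group.

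Klk1b24 read 8.24, 8.89 and 8.99 in NHsd saline mice (8.71 ± 0.41) and 6.02, 5.95 and 4.92 after cerulein (5.63 ± 0.62). In J it read 7.74, 7.23 and 8.67 with saline (7.88 ± 0.73) and 5.90, 4.63 and 4.58 with cerulein (5.03 ± 0.75). No cerulein array reached a saline array of its substrain, with gaps of 2.22 and 1.33. The mean differed by -3.08 in NHsd (8.46-fold lower) and -2.85 in J (7.19-fold lower, SE 0.44 each). Among the 8505 genes ordered from the lowest difference, Klk1b24 stood at 5 in NHsd and 12 in J, and Klk1b5 at 13 in NHsd and 6 in J.

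Klk1b11 read 8.46, 8.43 and 8.28 in NHsd saline mice (8.39 ± 0.10) and 7.49, 6.66 and 6.54 after cerulein (6.89 ± 0.52). In J it read 8.15, 8.24 and 9.14 with saline (8.51 ± 0.54) and 7.53, 6.39 and 7.12 with cerulein (7.01 ± 0.58). The groups did not overlap in either substrain. Both differences were -1.5 (SE 0.33), a 2.82-fold lower signal.

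Klk1b27 gave 4.77, 5.09 and 5.41 in NHsd saline mice (5.09 ± 0.32) and 4.36, 4.41 and 3.68 after cerulein (4.15 ± 0.41). In J it gave 4.61, 4.84 and 5.36 with saline (4.94 ± 0.38) and 4.36, 3.70 and 3.81 with cerulein (3.96 ± 0.35). The groups stood apart, by 0.36 in NHsd and 0.25 in J. The mean differed by -0.94 in NHsd (1.92-fold lower) and -0.98 in J (1.97-fold lower, SE 0.27 each). It exceeded log2 4, the low-signal limit used here, on 9 arrays, while the other members did so on all 12, and the size in J is inexact because the J cerulein mean lay under that limit.

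Klk1b8 showed the smallest and least even difference of the Klk1b genes. It read 7.40, 7.31 and 7.75 in NHsd saline mice (7.49 ± 0.23) and 6.72, 6.99 and 6.74 after cerulein (6.82 ± 0.15), with no overlap. In J it read 7.50, 7.30 and 8.03 with saline (7.61 ± 0.38) and 7.67, 6.49 and 7.11 with cerulein (7.09 ± 0.59), and the first cerulein mouse lay above 2 of the saline mice. The mean differed by -0.67 in NHsd (1.59-fold lower) and -0.52 in J (1.44-fold lower, SE 0.27 each). Single arrays moved the J value: it was -0.81 without J cerulein replicate 1, -0.23 without J cerulein replicate 2 and -0.31 without J saline replicate 3.

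**Figure D2:**
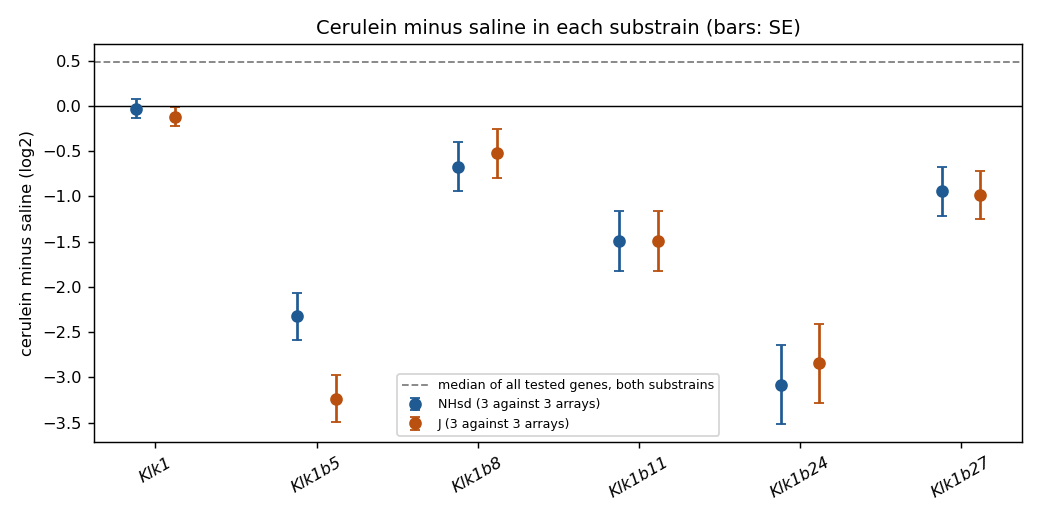
Cerulein minus saline in log2 signal for each gene, separately in NHsd and J mice, with bars of 1 standard error from the 4-group model and a dashed line at the median of all genes. Klk1b24 and Klk1b5 lie between -2.33 and -3.24, Klk1 lies at -0.03 and -0.12, and the median of all genes was 0.49 over both substrains.

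By the threshold used for all genes (limma, Benjamini-Hochberg adjusted p under 0.05), 5 of the 6 were lower over both substrains, 4 in NHsd and 4 in J. Over both, the count was 4 with no low-signal filter, where Klk1b8 was not called, and 6 at equal medians or with a gene's probe sets averaged, where Klk1 was called too. Equal medians moved the median difference of all genes from 0.49 to -0.1, and the shares of all genes called under the alternatives were not counted. In the main fit, 10.1% of all genes compared were called lower over both, 6.6% in NHsd and 7.61% in J. Because these contrasts led to the choice of the genes, nothing is read from the counts. The members' median difference over both substrains was -1.23, beside 0.49 for all genes. The direction of the 5 Klk1b genes was the same in the main fit and every alternative, 104 values of 104 below 0 in each of the 3 contrasts. These fits reuse the arrays that led to the choice of the genes, so the count is no support for the falls. Relative to all genes (arrays at equal medians) the differences were -0.66 for Klk1, -1.18 for Klk1b8, -1.54 for Klk1b27, -2.08 for Klk1b11, -3.36 for Klk1b5 and -3.54 for Klk1b24. These arrays measured whole tissue, in which fewer cells of a type and less RNA per cell cannot be told apart.

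Cross-binding between related genes limits which transcript a signal belongs to. The annotation held 27 kallikrein probe sets, with plasma kallikrein and a pseudogene among them, and 2 with several symbols. Klk1 had 4 of its own, of which 1415837_at was used. The second bright one, 1448107_x_at, stayed within 0.26 to 0.51 of it on the 12 arrays and differed by -0.05 in NHsd and -0.20 in J. The 2 dim ones behaved otherwise: 1455977_x_at averaged 6.48 with saline and 5.89 with cerulein in NHsd (6.38 and 5.72 in J), and 1460050_x_at 5.78 and 5.14 (5.63 and 5.07 in J), with no overlap between groups. Probe sets of 1 gene thus gave both a flat and a lower reading, and the mean over the 4 was -0.36 over both substrains. In the naming of this array family, the ending _x_at marks a set with probes that may bind other transcripts.

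Klk1b5 had a pair of probe sets, 1419010_x_at (used) and 1449313_at, which lay 0.09 to 0.19 apart on every array. The second, without the ending that marks shared probes, differed by -2.32 in NHsd and -3.29 in J, close to -2.33 and -3.24 for the first. Klk1b8, Klk1b11, Klk1b24 and Klk1b27 had 1 probe set each, so no second reading was at hand. A probe set shared by Klk1b9 and Klk1b22 (1425182_x_at) was bright and lower after cerulein, at 13.74 against 13.03 in NHsd and 13.74 against 12.65 in J, with no overlap. A second shared one, for Klk1b26 and Egfbp2, differed by -0.82 and -0.92 and its groups overlapped in both substrains. How far these transcripts enter the members' signals was not tested.

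**Figure D3:**
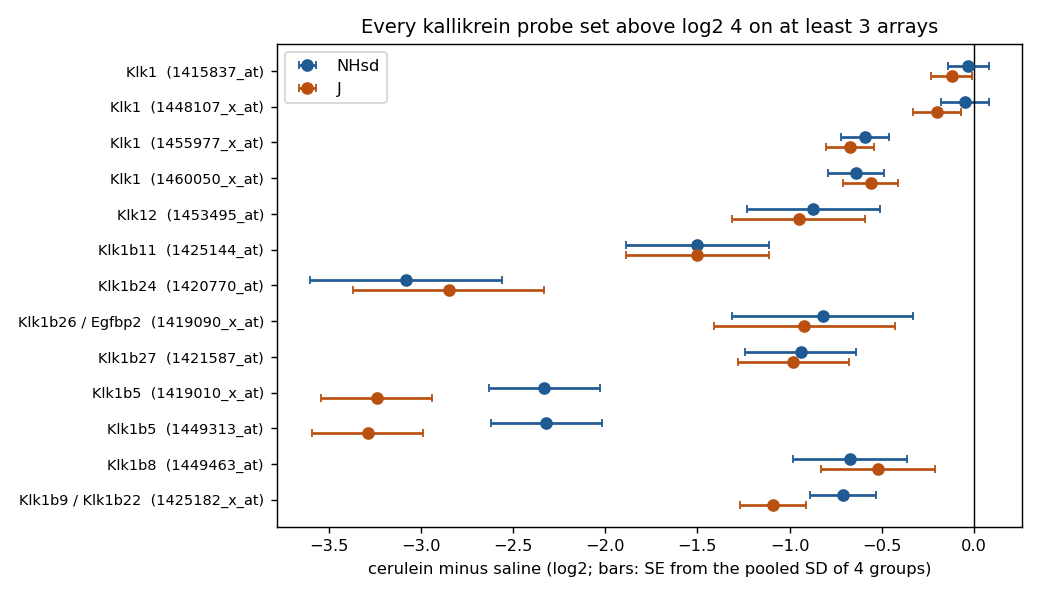
Cerulein minus saline in log2 signal for each kallikrein probe set above log2 4 on at least 3 arrays, by substrain, with bars of 1 SE from its own SD pooled over the 4 groups. The 2 Klk1b5 probe sets nearly coincide, while the 4 Klk1 probe sets split into a bright pair near 0 and a dim pair between -0.56 and -0.67.

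The comparison of the 6 genes left to test was J against NHsd averaged over saline and cerulein, a contrast orthogonal to the falls that drew attention to them. None of the 6 passed (limma, adjusted p under 0.05), where 12 of 8505 genes, 0.141%, did, and 722 genes had an unadjusted p under 0.05. Klk1b24 came nearest, at -0.71 for J minus NHsd (SE 0.31, 95% interval -1.38 to -0.04), with an unadjusted p of 0.039 and an adjusted p of 0.579 by limma. It was the only one of the 6 with an unadjusted p under 0.05. Its adjusted p ranged from 0.265 to 0.841 over the 20 alternatives, and its J and NHsd arrays overlapped in saline. Klk1b5 gave -0.37 (interval -0.77 to 0.03, limma adjusted p 0.604).

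The intervals of the others included 0 as well. They were -0.23 to 0.10 for Klk1, -0.59 to 0.24 for Klk1b27, -0.39 to 0.63 for Klk1b11 and -0.22 to 0.61 for Klk1b8, with limma adjusted p of 0.809, 0.796, 0.901 and 0.766. The Klk1 interval was the narrowest of the 6 and that of Klk1b24 the widest. As a description within each treatment, J minus NHsd was -0.83 for Klk1b24 in saline mice (interval -1.78 to 0.12) and -0.82 for Klk1b5 in cerulein mice (interval -1.39 to -0.26). These values came to -0.50 for Klk1b24 without J saline replicate 2 and -0.48 for Klk1b5 without NHsd cerulein replicate 1, and both were selected with the members, so the intervals are no test. Klk1b5 differed by only 0.09 in saline mice.

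**Figure D4:**
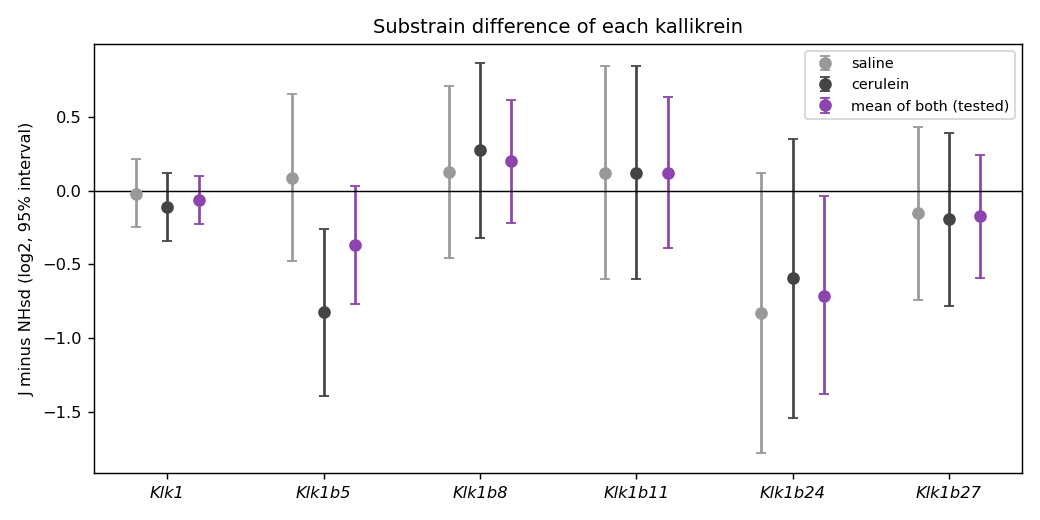
J minus NHsd in log2 signal for the 6 genes in saline mice, in cerulein mice and as the mean of both (the one tested), with 95% intervals from limma. For the mean of both, the interval of Klk1b24 runs from -1.38 to -0.04 and those of the other 5 genes include 0.

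Across the 12 arrays, Klk1b5, Klk1b11, Klk1b24 and Klk1b27 varied together, with Pearson correlations of 0.877 to 0.957 between pairs. Klk1 stood aside, with 0.002 (Klk1b8) to 0.467 (Klk1b5). The arrays form 2 clusters by treatment, which sets much of these values, so the deviations from group means were also compared. There Klk1b24 and Klk1b27 gave 0.904, Klk1b5 and Klk1b11 gave 0.772, and Klk1 gave -0.307 with Klk1b27 and 0.631 with Klk1b5. Klk1b11 gave 0.708 with Klk1b24 and 0.665 with Klk1b27, but Klk1b5 only 0.449 and 0.477 with them. Klk1b8 gave 0.751 with Klk1b24, 0.728 with Klk1b27, 0.666 with Klk1b11 and 0.348 with Klk1b5. The grouping seen over the 12 arrays thus did not fully carry over. J cerulein replicate 1 was the highest of its group for Klk1b8, Klk1b11, Klk1b24 and Klk1b27 and the lowest for Klk1, and had the lowest mean correlation with its group of all arrays, 0.983 against up to 0.994. With 12 arrays, and probe sets that may share transcripts, these are descriptions.

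Outside the family, the genes most like Klk1b5 across the 12 arrays were Tff2, a mucosal trefoil peptide (r = 0.991), Gal, the neuropeptide galanin (0.990), and Gp2, the main membrane protein of zymogen granules (0.988). Gal averaged 11.90 with saline and 8.34 with cerulein in NHsd (11.65 and 7.26 in J), and Gp2 14.71 and 13.46 (14.70 and 12.79 in J). Klk1b24 was most like Sct, which encodes secretin (0.977), AY036118 (0.958) and Hamp, the iron hormone hepcidin (0.954), and Klk1b27 was most like Wdr91 (0.947), Sct (0.942) and Pdilt (0.938). Zxdc (0.971), Rabac1 (0.969) and Azgp1 (0.958) led for Klk1b11, and Slc9a3r2 (0.898), Dnajc17 (0.892) and Mpst (0.880) for Klk1b8. Klk1 was closest to Slc38a10 (0.903), Mmut (0.883) and Dap (0.876), whose differences after cerulein lay between -0.17 and -0.20. Some of these genes had cerulein means under log2 4, so their differences are inexact. The NHsd and J cerulein means were 3.06 and 2.67 for Sct and 3.87 and 3.78 for Wdr91. They were 3.98 and 3.96 for Pdilt and 3.68 and 3.77 for Mpst, and the J cerulein mean of Hamp was 3.77. Likeness was measured over all compared genes and also reflects the split by treatment.

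The other kallikreins with a probe set of their own gave little signal on these arrays. Of 20 other kallikrein genes listed, 13 had a probe set of their own, and 11 of these never exceeded log2 4. The highest value of any was 4.19, and 7 of the 20 had no such probe set, among them Klk1b3, Klk1b4, Klk1b9, Klk1b22 and Klk1b26. Klk1b9 and Klk1b22 share the bright probe set described above. Only Klk12, a trypsin-like kallikrein of epithelia, had enough signal to be tested. It read 4.0, 3.21 and 4.19 in NHsd saline mice and 3.03, 4.16 and 4.13 in J saline mice, against 2.50 to 3.03 on the 6 cerulein arrays. Cerulein minus saline was -0.91 (SE 0.22, limma adjusted p 0.00314), a size that is inexact because all 4 group means lay under log2 4. The gene was tested only because of 3 saline arrays above that limit, a filter that favours a fall, so the call carries little weight. All 6 cerulein arrays were at or below every saline array at 2 decimals, and J against NHsd gave -0.06 (limma adjusted p 0.941).

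The genes that work with tissue kallikrein were mostly below the low-signal limit or moved in mixed directions. Of 28 listed, 23 had a probe set and 8 could be tested: 4 rose, 3 fell and 1 was not called after cerulein (limma, adjusted p under 0.05), beside 59.4% of all genes rising and 10.1% falling. Their median difference was 0.14, beside 0.49 for all genes. None of the 8 was called for J against NHsd, where 0.141% of all genes were. The largest of these differences was that of Egf, at -0.56 (SE 0.16, limma adjusted p 0.301). The kininogen gene Kng1 read 3.13 to 3.67, the receptor gene Bdkrb1 at most 2.62, and the receptor gene Bdkrb2 and the plasma kallikrein gene Klkb1 2.39, the lowest value in the data, on every array. Kng1, Bdkrb1 and Bdkrb2 were therefore not measurable above log2 4, and such readings bound the signal without showing absence. Kng2, Serpina3c and Ren1 were among those with no probe set of their own, so the other listed kininogen gene, Kng2, was not read.

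Egf, the growth factor that some Klk1b products bind, fell most. It read 9.08, 9.18 and 9.06 in NHsd saline mice and 7.58, 6.87 and 7.02 after cerulein. In J it read 9.06, 9.35 and 8.96 with saline and 5.57, 6.15 and 6.34 with cerulein. The groups were far apart in both substrains, and the fall over both was 2.53 (SE 0.16, limma adjusted p 7.25e-08). The effect in J minus that in NHsd was -1.15 (limma adjusted p 0.702), so a deeper fall in J was not shown.

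Serping1, which inhibits plasma kallikrein, rose by 2.07 (SE 0.22, limma adjusted p 4.94e-06), to 9.32 from 7.28 in NHsd and to 9.36 from 7.27 in J. Of the peptidases that trim or destroy kinins, Cpn1, a subunit of carboxypeptidase N, fell by 0.99 (SE 0.10, 4.98e-06), with group means of 8.58 and 7.56 in NHsd and 8.41 and 7.46 in J. Cpd, a carboxypeptidase of the secretory pathway, rose by 1.19 (SE 0.15, 2e-05). These calls, with that of Egf, held under all 20 alternatives. The proline-specific peptidases Prep and Xpnpep1 rose by 0.82 (SE 0.14, 0.000242) and 0.28 (SE 0.11, 0.0326) as deposited. With arrays at equal medians Prep was not called (0.21) and Xpnpep1 was -0.30, and under quantile normalization Prep was not called either (0.104) and Xpnpep1 was -0.31. Carboxypeptidase M, Cpm, fell by 0.31 (SE 0.11, 0.0288), and leaving out single arrays lost this call in 5 of 12 fits (adjusted p up to 0.0729) and that of Xpnpep1 in 7 (up to 0.0829). The endothelin-converting enzyme Ece1 was at 0.01 (SE 0.15, 0.977) as deposited but at -0.58 at equal medians and -0.57 under quantile normalization, both called. The values after each SE here are limma adjusted p.

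**Figure D5:**
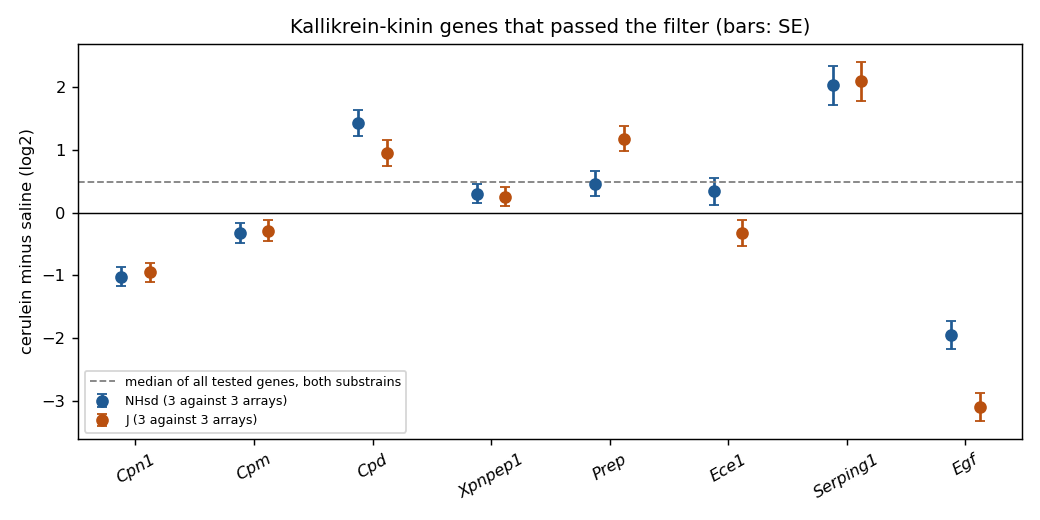
Cerulein minus saline in log2 signal for the 8 kallikrein-kinin genes that could be tested, as points for NHsd and J (3 against 3 arrays) with bars of 1 SE, and a dashed line at the median of all genes over both substrains, 0.49. Serping1 and Cpd lie above that line and Egf and Cpn1 below 0 in both substrains.

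Markers of the tissue's cells also differed between treatments, read beside the 59.4% of all genes called higher and 10.1% called lower. Of 12 acinar markers 10 were measured, all above log2 4, and their summed signal went from 17.99 to 18.04 (log2) in saline mice to 17.37 to 17.79 after cerulein, with 6 lower, 1 higher (the PTF1 subunit gene Rbpjl) and 3 not called. The sum is ruled by the brightest genes. The mean log2 of the 10 overlapped in NHsd, at 13.31 to 13.38 with saline and 12.9 to 13.42 with cerulein. In J it did not, at 13.26 to 13.36 and 12.71 to 12.99. All 8 macrophage markers rose, with a summed signal from 8.84 to 9.56 in saline and 12.09 to 12.86 in cerulein mice, as did all 6 fibroblast markers, from 10.94 to 11.59 and 12.80 to 14.31. Adgre1, Cd68 and Ms4a7 of the macrophage list exceeded log2 4 on cerulein arrays only, which favours a rise for those 3. Of the duct markers 2 of 3 tested were called higher, of the islet markers 5 of 5 and of the endothelial markers 2 of 3, where Vwf likewise exceeded log2 4 on cerulein arrays only. With so few genes, 2 of 3 is near the share of all genes. Of 9 salivary gland markers with a probe set, 7 never exceeded log2 4, the salivary secretory protein gene Bpifa2 among them at 2.39 on all arrays, and the exceptions were Egf and the water channel gene Aqp5. Of 3 kidney markers only Umod could be tested, and it read 3.18 to 5.25. The part of cell makeup in the members' values was not tested.

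On every array between 26.3% and 31.3% of probe sets exceeded log2 4, fewer with saline (26.3% to 27%) than after cerulein (29.5% to 31.3%). The female-specific Xist was bright throughout (9.52 to 11.5), while the Y-linked Eif2s3y and Kdm5d reached at most 3.37 in 5 probe sets. Nnt, which carries a deletion in C57BL6/J, differed by -1.37 in J. The mean of 12 probe sets for poly-A control RNA was 9.81 to 10.96 on saline arrays and 7.13 to 8.67 on cerulein arrays. That of 7 probe sets for hybridization control RNA was 7.41 to 8.7 and 5.9 to 6.34. Neither range overlapped between treatments, and their part in the results was not tested.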

How the data were processed

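Expression was measured on 12 arrays, 3 mice in each of 4 groups taken from the labels. Biotin-labelled cRNA was made from total RNA extracted with Trizol, per the labels' protocols. Deposited probe set signals are on a log2 scale: the authors' processing names GCRMA and Partek, without versions, per the submitters' processing notes, and further steps are not given in the sources used here. That the log is to base 2 rests on the range of the values (2.39 to 16.4). The annotation of the array gave 34958 of 45101 probe sets 1 gene symbol, and those with several (932) or none (9211) stayed out of the comparisons. Values were used as deposited. Probe sets above log2 4 on 3 or more arrays entered, 1 per gene by highest mean, for 8505 genes. The number of arrays, 3 a group, limits the precision: the median SE of a difference between 2 groups was 0.20.

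The 4 group means were modelled jointly over the 12 arrays with limma 3.58.1 in R 4.3.3 (moderated, with an intensity trend, two-sided), and p-values were adjusted by Benjamini-Hochberg over the 8505 genes. A fold is 2 to the power of a log2 difference. In simulated data with known changes between J and NHsd over these 8505 genes, the fit called 50.7% of 1.5-fold, 98.5% of 2-fold and 100% of 4-fold changes. It also called 11 genes with no change set. Changes were set in 67 genes at 1.5-fold, 67 at 2-fold and 66 at 4-fold, all higher in J. In the data, 12 genes were called in this contrast. The Benjamini-Hochberg cutoff depends on how many genes change, so the simulated rates need not hold for the data. These rates are averages over genes whose median SE was 0.14. The SEs of the 5 Klk1b genes were larger, 0.18 to 0.31, so the rates do not describe them. Promoter windows came from RefSeq (GRCm38.p6) and were aligned with Biopython 1.88. Figures were drawn with matplotlib 3.10.9.

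The members, the gene lists and the tests were chosen with earlier results of these data known. The genes named were all 6 members, every other listed kallikrein that passed the filter, the kallikrein-kinin genes called in a comparison with the kininogens and receptors, the 3 genes most like each member by Pearson correlation over the 12 arrays, and defining cell type markers. Ece1, Klkb1 and Nnt were named after their values were seen. Alternatives were quantile normalization, equal array medians, no filter, a low-value limit of log2 6, robust moderation, moderation without the trend, averaging a gene's probe sets, a replicate block, and leaving out each array.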

Additional observations from a re-analysis of the deposited data

How the results depend on the processing

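Of 471 tested values of single genes under the alternatives, 14 lost a call (Cpm 5, Xpnpep1 7, Prep 2) and 4 reversed. Of 714 values of members given as descriptions, 29 moved by more than 1 SD between mice, 2 went from past the threshold to short of it (Klk1b8 over both substrains with no filter, Klk1b27 in NHsd without NHsd cerulein replicate 3) and 18 went the other way, all of Klk1 or Klk1b8. The reversals were those of Ece1 (-0.57 under quantile normalization, -0.58 at equal medians) and Xpnpep1 (-0.31 and -0.30). Both settings remove the shift of all genes, whose median difference after cerulein went from 0.49 to -0.06 and -0.10. The shares of all genes called were not counted under any alternative, so the counts here stand without them. Under both settings the kallikrein-kinin genes split into 2 higher and 5 lower. With a filter at log2 6, 4 of these genes were called, 2 of them higher, since fewer were tested, and Klk12 and Klk1b27 were not tested. With no filter, 3 of 13 other kallikreins were called. Leaving out each array gave 5 to 7 kallikrein-kinin calls (3 to 4 higher, 2 to 3 lower), 1 other kallikrein throughout, 5 members lower over both substrains, 3 to 5 in NHsd and 4 to 5 in J. The count of members over both was 4 with no filter and at log2 6, and 6 at equal medians and with probe sets averaged. J against NHsd gave 0 members called under every alternative run.

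With a replicate block the counts were 5 members lower over both substrains, 5 in NHsd (4 without it) and 4 in J, 7 kallikrein-kinin genes, and 0 members for J against NHsd. Whether the replicate numbers pair the samples was not settled: of 18 same-numbered pairs 6 correlated above 0.1 (median 0.0155, range -0.16 to 0.34). Pairs with different numbers ranged from -0.365 to 0.249, and several of them also lay above 0.1. With 3 mice a group, 50.7% of simulated 1.5-fold differences were called, as an average over genes drawn from all those compared. More genes were changed in the simulation than were called in the data, so this rate need not hold for the data. Readings near the 2.39 floor give only a bound.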
